A study of Arabidopsis thaliana with 4 samples.

Results

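Roots of 8-day-old *Arabidopsis* seedlings were compared between the auxin response factor mutant *arf7* and the wild type (WT) in the absence of added auxin. The comparison, *arf7*-Mock VS WT-Mock, used 2 of the 4 libraries of the series, chosen by their genotype and treatment labels. The other 2 libraries, *arf7*-NAA and WT-NAA, came from the same genotypes after treatment with the synthetic auxin naphthalene acetic acid (NAA) and served only as a second pair of the genotypes. WT is Col, the *arf7* line is a T-DNA mutant (Salk_040394 in the study's methods), and Mock stands for roots without NAA. The labels place the seedlings on half-strength MS medium in the dark, and the study's methods place plants under a photoperiod. Each condition is 1 library, so no difference below has a replicate check. The tests below therefore compare single libraries and not the genotypes as such.

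ARF7 is a transcription factor that binds auxin-responsive promoters. At low auxin it is held inactive by Aux/IAA repressors, which are degraded when auxin binds its TIR1/AFB receptors. Together with ARF19 it drives lateral root formation through LBD transcription factors such as *LBD16* and *LBD29*, and *arf7* roots are known for having few lateral roots. The question asked here was what already differed in the mutant roots before auxin was added.

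The libraries held 7.23 M (1e6) uniquely assigned reads in *arf7*-Mock and 7.57 M in WT-Mock. A transcript model with reads had a median of 45 reads in *arf7*-Mock and 46 in WT-Mock, and the 10 highest models took 6.43% and 6.37% of the reads of these libraries. Levels are given as RPKM, reads scaled to transcript length and library total. Each gene is represented by its transcript model with the most reads. A gene was called when the exact two-sided binomial test of its reads gave P below 0.0001 and its RPKM differed at least 2-fold. Of 22515 genes with reads, 234 (1.04%) were called, 105 (0.466%) of them higher and 129 (0.573%) lower in *arf7*-Mock. Intervals are exact 95% Clopper-Pearson intervals of the log2 ratio and cover counting error only. Reads shared by near-identical gene copies, or by several transcript models of 1 gene, may not be assigned to any of them.

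The libraries were close for most genes. Among 16350 genes with at least 20 reads over both libraries the median log2 ratio of *arf7*-Mock over WT-Mock was 0.01, with a 5th percentile of -0.67 and a 95th percentile of 0.69. Of the 3501 genes with at least 1000 reads over both libraries, 99.3% lay within 2-fold. The called genes had modest depth, with a median of 152 reads in *arf7*-Mock and 65 in WT-Mock for those called higher, and 45 in *arf7*-Mock and 130 in WT-Mock for those called lower. Changes of 4-fold or more were found in 18 of the genes called higher and 35 of those called lower.

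**Figure D1:**
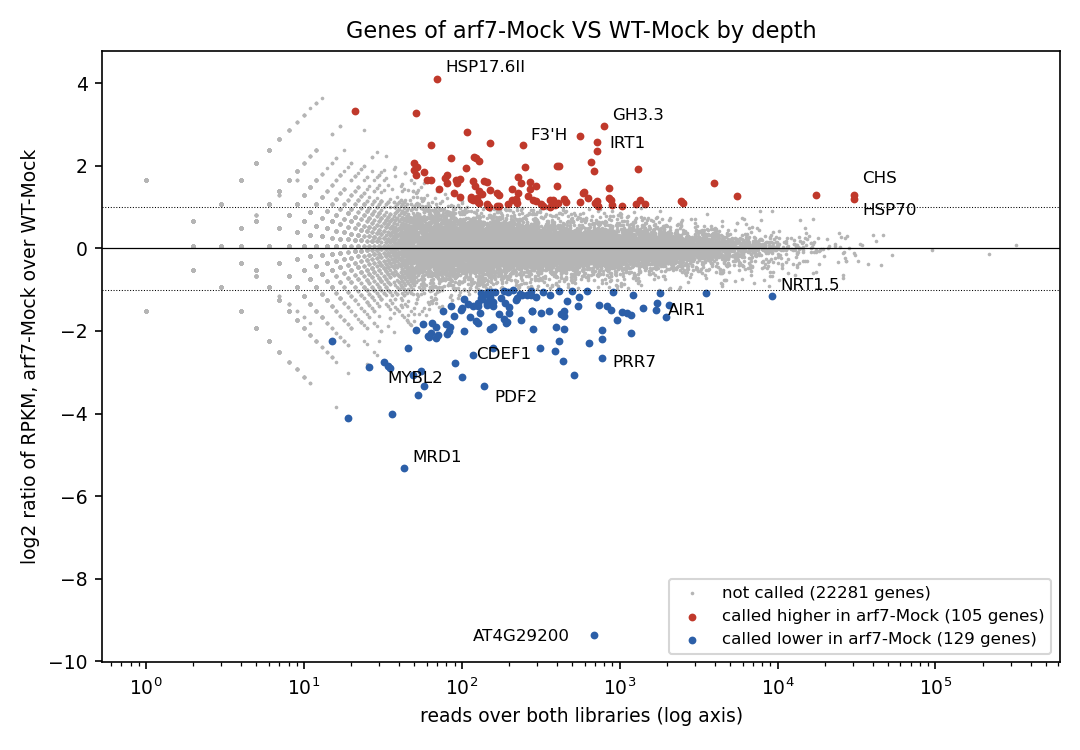
Log2 ratio of RPKM of *arf7*-Mock over WT-Mock (y axis) against the reads over both libraries (x axis, log scale), 1 point per gene, with called genes in colour and dotted lines at 2-fold. The 105 genes called higher and 129 called lower lie mostly at intermediate depth, while the deepest genes sit close to 0.

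The identity of the mutant could not be read from *ARF7* itself. *ARF7* (AT5G20730, chromosome 5) had 8 reads in *arf7*-Mock and 5 in WT-Mock, which covered 1.40% and 1.65% of its transcript, with a log2 ratio of 0.74 (interval -1.05 to 2.70). The interval included 0, so no difference was detectable from these reads. *ARF7* has 2 transcript models with reads, and the part of unique assignment in its low count was not tested. *ACT2*, also with 2 models, had 546 reads in *arf7*-Mock that covered 5.30% of its transcript. The labelled tissue was checked against root cell markers. All 14 root cell markers had reads, among them the endodermal regulators *SCR* and *SHR* and the root hair gene *EXPA7*, with a summed level of 387 RPKM in *arf7*-Mock and 348 RPKM in WT-Mock. None of the root markers was called.

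Several lateral root genes were lower in *arf7*-Mock. Of 21 listed members with reads, 4 were called lower and none higher (19%, against 1.04% of all genes). The median log2 ratio of the 17 with at least 20 reads was -0.47, against 0.01 for all genes. *LBD29* (chromosome 3, 21548484 to 21549558), a LOB-domain transcription factor of lateral root initiation, had 4 reads in *arf7*-Mock and 30 in WT-Mock (0.577 and 4.13 RPKM), a log2 ratio of -2.84 (interval -4.81 to -1.34). *CDEF1*, a cutinase known from tissue around emerging lateral roots, had 57 reads in *arf7*-Mock and 334 in WT-Mock, a log2 ratio of -2.48 (interval -2.92 to -2.08). *AIR1*, named as an auxin-induced gene of root cultures, stood at 96.1 RPKM in *arf7*-Mock and 240 RPKM in WT-Mock (480 and 1255 reads), and the membrane-associated regulator gene *MAKR4* at 3.77 RPKM and 9.99 RPKM (31 and 86 reads). These 4 genes were the only called members, and all 4 were called lower in *arf7*-NAA VS WT-NAA as well. *AIR1* stood at 240 RPKM in WT-Mock and 1448 RPKM in WT-NAA, and at 96.1 RPKM in *arf7*-Mock and 68.8 RPKM in *arf7*-NAA. For *CDEF1* these levels were 31.7, 153, 5.67 and 6.55 RPKM. The NAA pair therefore also holds any difference in the response to NAA, which was not separated from the untreated difference. Of 22461 genes with reads in that pair, 315 (1.4%) were called, 132 (0.588%) higher and 183 (0.815%) lower in *arf7*-NAA.

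The other members were not called and went both ways, with 4 of the 17 that had at least 20 reads above 0. *XTH23*, a wall-loosening enzyme gene, had 265 reads in *arf7*-Mock and 154 in WT-Mock, a log2 ratio of 0.85 (interval 0.56 to 1.15). The expansin gene *EXPA14* had 494 reads in *arf7*-Mock and 379 in WT-Mock (log2 ratio 0.45, interval 0.25 to 0.65), and *AIR3* had a log2 ratio of 0.13 (interval 0.03 to 0.24). *PRH1*, the pathogenesis-related gene on which the study centred, had 4 reads in *arf7*-Mock and 25 in WT-Mock (0.785 and 4.68 RPKM). Its log2 ratio of -2.58 (interval -4.56 to -1.04) passed the fold threshold but not the P threshold. *LBD16* had 91 reads in *arf7*-Mock and 132 in WT-Mock, a log2 ratio of -0.47 (interval -0.87 to -0.07), and *LBD18* had 15 and 23 reads, with an interval that included 0. Both *PRH1*, with 11 reads in *arf7*-NAA and 76 in WT-NAA, and *LBD18*, with 12 and 42, were called lower in the NAA pair. *STY2*, annotated as related to a lateral root primordium protein and picked after its values were seen, had 4 reads in *arf7*-Mock and 28 in WT-Mock. Of 28 LBD genes with reads, *LBD41* was the only other called lower, with 52 reads in *arf7*-Mock and 136 in WT-Mock. *LBD29* and *LBD41* made 7.14% of that family.

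The *GH3* family changed in both directions. GH3 enzymes join auxin and other hormones to amino acids. *GH3.3* (chromosome 2, 9863855 to 9866562) had 45.5 RPKM in *arf7*-Mock and 5.86 RPKM in WT-Mock (697 and 94 reads), a log2 ratio of 2.96 (interval 2.64 to 3.28), and no called gene that had 10 or more reads in each library exceeded it. Its paralogs *GH3.2* and *GH3.5* went the other way. *GH3.2* had 254 reads in *arf7*-Mock and 777 in WT-Mock, and *GH3.5*, which the study used as an auxin-response control, had 214 and 744, giving log2 ratios of -1.55 and -1.73. The remaining members with at least 20 reads were not called. *GH3.6* had 271 reads in *arf7*-Mock and 504 in WT-Mock (log2 ratio -0.83), *GH3.17* had 309 and 318, and *GH3.1* had 41 and 40. The opposite directions of *GH3.3* and of *GH3.2* and *GH3.5* were also called in the NAA pair. AT1G23160, a further gene annotated as GH3-like and added to the list after its values were seen, was called higher with 73 reads in *arf7*-Mock and 24 in WT-Mock. That widened list of 16 genes held 2 called higher and 2 called lower.

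The 250 bases before the start of the 3 called *GH3* paralogs are shown because each holds the auxin response element, the letters TGTCTC read on both strands, although the genes moved in different directions (TAIR10.1 and its RefSeq annotation, 5′ to 3′, the element in capitals).
*GH3.3* (chr2:9866563-9866812, reverse strand): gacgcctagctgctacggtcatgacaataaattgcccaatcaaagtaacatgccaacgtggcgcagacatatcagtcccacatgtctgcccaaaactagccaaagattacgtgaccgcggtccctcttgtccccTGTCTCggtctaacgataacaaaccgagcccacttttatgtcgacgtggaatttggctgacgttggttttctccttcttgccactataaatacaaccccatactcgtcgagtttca
*GH3.2* (chr4:17579368-17579617, forward strand): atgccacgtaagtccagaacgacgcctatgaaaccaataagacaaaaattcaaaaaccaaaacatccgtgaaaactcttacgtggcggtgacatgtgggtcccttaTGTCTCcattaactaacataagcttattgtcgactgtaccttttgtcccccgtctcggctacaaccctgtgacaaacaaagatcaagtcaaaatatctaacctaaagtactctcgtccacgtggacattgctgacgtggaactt
*GH3.5* (chr4:13653329-13653578, forward strand): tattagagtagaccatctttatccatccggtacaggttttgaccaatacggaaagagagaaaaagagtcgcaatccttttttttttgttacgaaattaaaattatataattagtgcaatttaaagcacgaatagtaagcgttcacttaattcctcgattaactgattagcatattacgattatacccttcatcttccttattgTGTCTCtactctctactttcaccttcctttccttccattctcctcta

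Counted from the gene start, the element begins at position -116 in *GH3.3*, -144 in *GH3.2* and -47 in *GH3.5*. It was held by 10.9% of the windows of 27438 protein-coding genes, 8.82% of those of genes called higher and 10.2% of those of genes called lower. None of the 4 called lateral root genes held it in this window. A match describes the letters and is not a tested binding site.

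No listed gene of the core auxin machinery was called, and with 1.04% of all genes called, lists of this size would hold few calls. None of 27 Aux/IAA repressor genes, 14 auxin response factor genes, 6 auxin receptor genes, 12 auxin transporter genes and 44 SAUR genes with reads was called, and the list medians lay between -0.09 and 0.18. *ARF19*, the closest functional partner of *ARF7*, was at 22.9 RPKM in *arf7*-Mock and 19.5 RPKM in WT-Mock, a log2 ratio of 0.23 (interval 0.07 to 0.40). The auxin influx carrier gene *LAX3* was at 69.8 RPKM in *arf7*-Mock and 62.3 RPKM in WT-Mock (log2 ratio 0.17). The receptor gene *TIR1* (72.1 and 86.9 RPKM) and the repressor gene *IAA16* (304 and 331 RPKM) had log2 ratios of -0.27 and -0.12. Some repressor genes differed more, though by less than 2-fold. *IAA17* had a log2 ratio of 0.61 (interval 0.45 to 0.76), *IAA28* had 0.53 (interval 0.40 to 0.67) and *IAA27* had -0.48 (interval -0.77 to -0.19). Cytokinin type-A response regulators, 9 with reads, and the jasmonate synthesis and JAZ genes, 21 with reads, had no called member either.

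**Figure D2:**
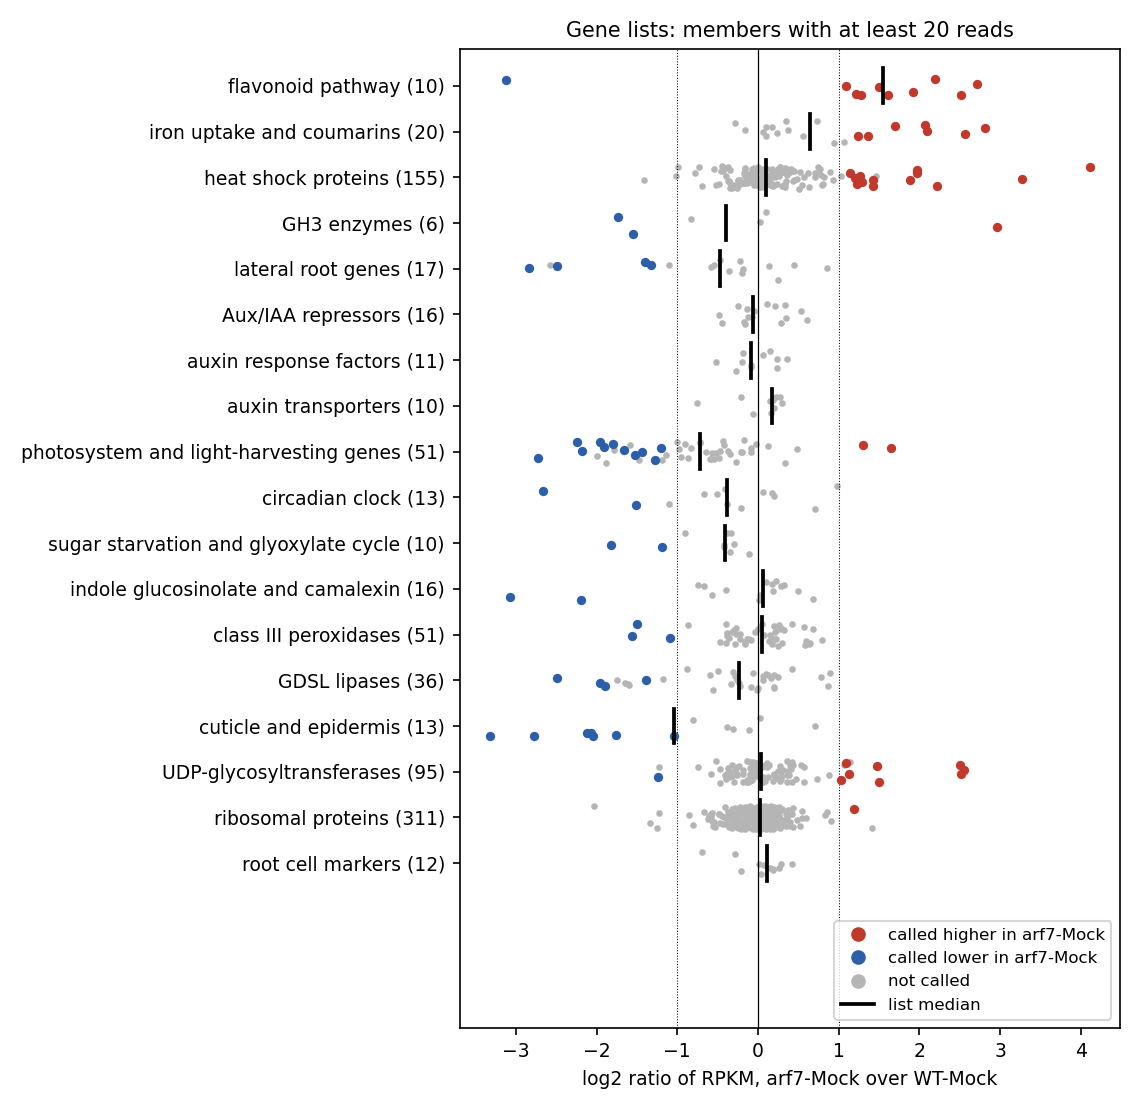
Log2 ratios of RPKM of *arf7*-Mock over WT-Mock (x axis) for members of 18 gene lists (y axis, with the number of members with at least 20 reads over both libraries), 1 point per gene, with list medians as black bars. Flavonoid and iron uptake genes sit mostly to the right, photosystem and cuticle genes to the left, and Aux/IAA, auxin response factor and auxin transporter genes within 2-fold of 0.

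Flavonoid genes were higher in *arf7*-Mock. Flavonoids are phenylpropanoid pigments and antioxidants, and in roots flavonols are known to limit auxin transport. Of 16 listed genes with reads, 9 were called higher and 1 lower, and the median log2 ratio of the 10 with at least 20 reads was 1.55. Each of these 10 genes was called, 62.5% of those with reads against 1.04% of all genes. The list had been drawn up with earlier results of these data known.

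The flavonoid genes called higher include enzymes from several steps of the route. *CHS* (chromosome 5, 4488688 to 4490264), chalcone synthase, which makes the first committed product, had 21387 reads in *arf7*-Mock and 9218 in WT-Mock (1984 and 817 RPKM), a log2 ratio of 1.28 (interval 1.25 to 1.32). *CHI*, which closes the chalcone ring, had 153 RPKM in *arf7*-Mock and 40.3 RPKM in WT-Mock, a log2 ratio of 1.92, and its non-catalytic relative *CHIL* had 9.86 RPKM in *arf7*-Mock and 2.15 RPKM in WT-Mock. *F3'H*, which hydroxylates the B ring, differed most of the enzymes, with 36.4 RPKM in *arf7*-Mock and 5.54 RPKM in WT-Mock (483 and 77 reads, log2 ratio 2.72, interval 2.37 to 3.08). *F3H*, the hydroxylase that acts between *CHI* and *FLS1*, had 1 read in *arf7*-Mock and 0 in WT-Mock, so this step was not measured.

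Steps specific to flavonols were higher as well. *FLS1*, flavonol synthase, had 201 reads in *arf7*-Mock and 69 in WT-Mock (log2 ratio 1.61). The flavonol glycosyltransferase genes *UGT78D1* and *UGT78D2* had 89 and 471 reads in *arf7*-Mock and 33 and 232 in WT-Mock. The late anthocyanin genes *DFR* and *LDOX* had no reads in either Mock library. *UGT84A1*, annotated as a UDP-glycosyltransferase and known to act on hydroxycinnamic acids, had 207 reads in *arf7*-Mock and 38 in WT-Mock (log2 ratio 2.51).

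The regulators of the route moved in opposite directions. *MYB12*, an activator of flavonol genes, had 41.3 RPKM in *arf7*-Mock and 17.8 RPKM in WT-Mock (434 and 196 reads, log2 ratio 1.21). *MYBL2*, a repressor of flavonoid genes, was the single member called lower, with 1.40 RPKM in *arf7*-Mock and 12.2 RPKM in WT-Mock (10 and 91 reads, log2 ratio -3.12, interval -4.23 to -2.18). In *arf7*-NAA VS WT-NAA, 8 of the 9 genes were again called higher, *MYBL2* again lower, and the list median was 2.09.

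The promoters of 3 flavonoid genes are shown because they hold the G-box, the letters CACGTG read on both strands, in the 250 bases before the gene start (TAIR10.1 and its RefSeq annotation, 5′ to 3′, G-box in capitals).
*CHS* (chr5:4488226-4488475, forward strand): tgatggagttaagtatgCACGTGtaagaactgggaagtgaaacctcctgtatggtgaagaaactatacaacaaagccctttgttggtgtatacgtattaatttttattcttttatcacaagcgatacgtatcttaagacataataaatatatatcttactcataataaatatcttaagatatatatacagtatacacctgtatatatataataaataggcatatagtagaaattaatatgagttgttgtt
*CHIL* (chr5:1563036-1563285, forward strand): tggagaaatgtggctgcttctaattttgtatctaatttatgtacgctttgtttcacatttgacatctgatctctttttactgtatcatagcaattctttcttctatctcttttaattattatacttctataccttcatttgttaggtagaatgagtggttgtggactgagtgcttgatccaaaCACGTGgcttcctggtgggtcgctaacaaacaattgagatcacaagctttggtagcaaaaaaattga
*MYB12* (chr2:19476076-19476325, forward strand): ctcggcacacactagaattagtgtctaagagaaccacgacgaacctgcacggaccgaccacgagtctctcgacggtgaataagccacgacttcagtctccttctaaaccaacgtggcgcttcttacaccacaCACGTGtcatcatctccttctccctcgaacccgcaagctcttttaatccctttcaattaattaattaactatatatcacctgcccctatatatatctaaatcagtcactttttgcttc

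Of the 10 called flavonoid genes, 3 held the G-box in this window (30%), and 6.49% of the windows of 27438 protein-coding genes did. Among all genes called higher the share was 13.7% (14 of 102 windows), and among those called lower it was 7.87% (10 of 127). The G-box was not particular to the flavonoid genes. It was held by 4 of 13 called photosystem genes (30.8%), most of them called lower, and by 1 of 2 called clock genes. Among called iron and heat shock genes the shares were 14.3% (1 of 7) and 7.69% (1 of 13), and 0 of 4 called lateral root genes held it.

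Glycosyltransferases outside the flavonoid list were also found among the higher genes. Of 116 UDP-glycosyltransferase genes with reads, 8 were called higher and 1, *UGT76D1*, lower, while the family median was 0.04. These calls made 7.76% of the family, against 1.04% of all genes. The 8 include *UGT78D1*, *UGT78D2* and *UGT84A1*, which the flavonoid list also holds. AT2G22590 had 129 reads in *arf7*-Mock and 23 in WT-Mock (log2 ratio 2.55), and with NAA it had 77 reads in *arf7*-NAA and 2 in WT-NAA. AT5G17040, the neighbour of *UGT78D2* on chromosome 5, had 54 reads in *arf7*-Mock and 10 in WT-Mock. *UGT84A2*, whose product glucosylates sinapate, had 619 reads in *arf7*-Mock and 234 in WT-Mock. The most abundant member, *UGT76B1*, was at 355 RPKM in *arf7*-Mock and 324 RPKM in WT-Mock, a log2 ratio of 0.13 (interval 0.06 to 0.19).

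Iron uptake genes were higher, and none was called lower. Roots of *Arabidopsis* take up iron by reducing it at the surface with FRO2, importing it with IRT1 and secreting coumarins, under the control of FIT and its bHLH partners. Of 29 listed genes with reads, 7 were called higher (24.1%, against 1.04% of all genes). Log2 ratios were above 0 in 18 of the 20 with at least 20 reads, with a median of 0.64. The transporter gene *IRT1* (chromosome 4, 10707446 to 10709015) had 61.0 RPKM in *arf7*-Mock and 10.3 RPKM in WT-Mock (607 and 107 reads, log2 ratio 2.57, interval 2.27 to 2.88). The reductase gene *FRO2* had 530 reads in *arf7*-Mock and 130 in WT-Mock (log2 ratio 2.09). Both were called higher in the NAA pair too, with 152 and 61 reads of *IRT1* and 153 and 78 reads of *FRO2* in *arf7*-NAA and WT-NAA.

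The rest of the iron group was uneven. *CYP82C4*, a hydroxylase of coumarin synthesis, had 94 reads in *arf7*-Mock and 14 in WT-Mock (log2 ratio 2.81), the nicotianamine synthase gene *NAS2* had 421 and 171 (log2 ratio 1.37), and the regulators *bHLH38* and *bHLH101* had log2 ratios of 1.70 and 1.24. AT1G47395, a short gene without annotated function in the files, had 40 reads in *arf7*-Mock and 10 in WT-Mock. *FIT* was not called, with 906 reads in *arf7*-Mock and 806 in WT-Mock (log2 ratio 0.24). Other coumarin genes were not called. The synthesis gene *F6'H1* had 583 reads in *arf7*-Mock and 572 in WT-Mock, the listed gene AT3G12900 had 11 and 1 (log2 interval 0.74 to 8.95), and the exporter gene *ABCG37* had 258 RPKM in *arf7*-Mock and 241 RPKM in WT-Mock. None of 8 iron storage genes with reads was called. The uptake genes *AHA2* and *NRAMP1* had log2 ratios below 0 (-0.16 and -0.28). Of the genes called here, only *IRT1* and *FRO2* were called in the same direction in the NAA pair, where the list median was 0.20. *NAS4* was not called in the Mock pair, with 204 reads in *arf7*-Mock and 145 in WT-Mock. With NAA it was called higher, with 311 reads in *arf7*-NAA and 98 in WT-NAA.

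Some heat shock protein genes were higher in *arf7*-Mock. These chaperones are induced by heat through heat shock factors and refold or hold damaged proteins. Of 201 genes with reads in a list of heat shock proteins and chaperones, 13 were called higher and none lower, and the list median was 0.10. These calls made 6.47% of the list, against 1.04% of all genes. The list was matched by annotation text and missed 2 related genes called lower, which were picked after their values were seen. *J20*, annotated as DNAJ-like, had 59 reads in *arf7*-Mock and 126 in WT-Mock, and *ACD32.1*, with an alpha-crystallin domain, had 66 and 159. *HSP70* (AT3G12580) had 21009 reads in *arf7*-Mock and 9568 in WT-Mock (1273 and 554 RPKM, log2 interval 1.17 to 1.24). The chaperone gene *HSP90.1* had 688 RPKM in *arf7*-Mock and 282 RPKM in WT-Mock, and *HSP101*, which pulls proteins out of aggregates, had 168 and 69.9 RPKM.

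The small heat shock proteins differed most within the group. *HSP17.6II* had 66 reads in *arf7*-Mock and 4 in WT-Mock, a log2 ratio of 4.11 (interval 2.69 to 6.03), the highest among all genes called. Its neighbour on chromosome 5, *HSP17.6A*, had 98 reads in *arf7*-Mock and 22 in WT-Mock (log2 ratio 2.22). The mitochondrial *HSP23.6-MITO* had 46 and 5 reads (log2 ratio 3.27), and AT1G07400 had 538 and 153 (log2 ratio 1.88). The immunophilin gene *ROF2*, outside the list and among the called genes of highest level, had 191 RPKM in *arf7*-Mock and 63.4 RPKM in WT-Mock (log2 ratio 1.59). Of the listed genes called in the Mock pair, *HSP17.6A* was the only one also called with NAA, higher with 49 reads in *arf7*-NAA and 17 in WT-NAA. *HSP70* had 16368 reads in *arf7*-NAA and 16049 in WT-NAA.

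The windows before 3 of the small heat shock genes are shown because they hold the paired units bound by heat shock factors, GAANNTTC or TTCNNGAA (both read the same on either strand and may overlap, here in capitals).
*HSP17.4* (chr3:16984868-16985117, reverse strand): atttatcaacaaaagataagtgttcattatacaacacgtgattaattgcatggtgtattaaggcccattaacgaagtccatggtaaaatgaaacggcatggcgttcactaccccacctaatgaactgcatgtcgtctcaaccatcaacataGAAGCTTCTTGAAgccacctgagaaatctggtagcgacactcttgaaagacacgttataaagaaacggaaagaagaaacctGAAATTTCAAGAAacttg
AT1G53540 (chr1:19980049-19980298, forward strand): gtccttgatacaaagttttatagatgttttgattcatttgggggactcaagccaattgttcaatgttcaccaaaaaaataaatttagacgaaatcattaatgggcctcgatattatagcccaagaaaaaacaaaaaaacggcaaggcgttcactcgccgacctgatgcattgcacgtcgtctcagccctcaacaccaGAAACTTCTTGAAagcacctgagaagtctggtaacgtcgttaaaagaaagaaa
*HSP17.6A* (chr5:3884839-3885088, reverse strand): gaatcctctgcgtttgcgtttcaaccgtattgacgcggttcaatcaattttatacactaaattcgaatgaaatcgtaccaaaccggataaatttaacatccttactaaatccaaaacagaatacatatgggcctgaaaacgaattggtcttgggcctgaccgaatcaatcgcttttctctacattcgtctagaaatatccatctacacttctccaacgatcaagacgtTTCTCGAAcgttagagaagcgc

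Of the 13 called heat shock genes, 4 held either unit in the 250 bases before the gene start (30.8%), against 16.2% of all windows, 21.6% of those of genes called higher and 18.1% of those of genes called lower. *HSP17.4* had 28.5 RPKM in *arf7*-Mock and 10.6 RPKM in WT-Mock, and AT1G53540 had 8.75 and 2.24 RPKM.

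**Figure D3:**
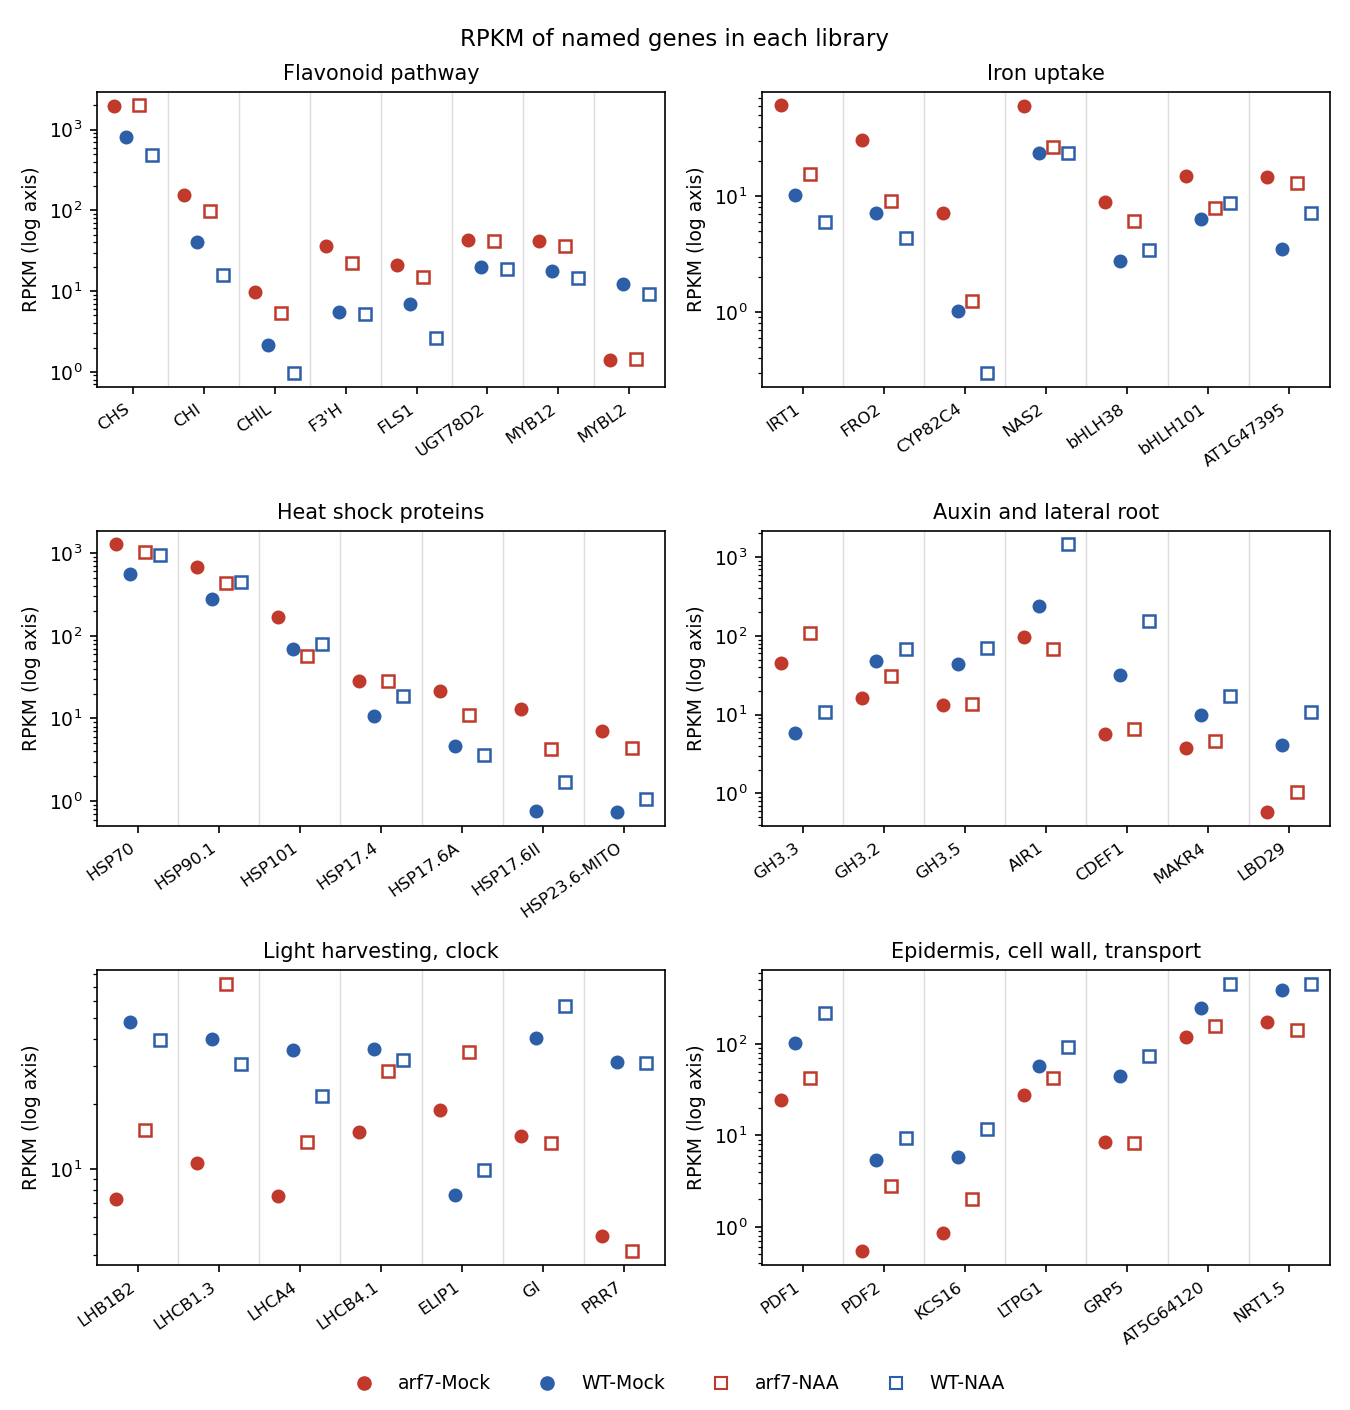
RPKM (y axis, log scale) of 43 called genes in the 4 libraries, grouped by function, with filled circles for *arf7*-Mock and WT-Mock and open squares for *arf7*-NAA and WT-NAA. *GH3.3* lies above WT in both *arf7* libraries, *AIR1* and *CDEF1* lie below it in both, and *HSP70* is called in the Mock pair but not with NAA, where its log2 ratio was 0.11.

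Photosystem and light-harvesting genes were lower. They encode the chlorophyll-binding antennae and reaction centre subunits and are low in roots. Of 89 genes with reads, 11 were called lower and 2 higher (14.6%, against 1.04% of all genes). Log2 ratios were below 0 in 46 of the 51 with at least 20 reads, and the median was -0.72. The antenna gene *LHB1B2* had 7.28 RPKM in *arf7*-Mock and 48.0 RPKM in WT-Mock (55 and 380 reads, log2 ratio -2.72). *LHCB1.3* had 81 reads in *arf7*-Mock and 317 in WT-Mock, and *LHCA4* had 69 and 342. The photosystem I subunit gene *PSAF* had 70 reads in *arf7*-Mock and 210 in WT-Mock.

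The 2 members called higher were *ELIP1* and *ELIP2*, early light-inducible proteins that protect plastids under light stress. *ELIP1* had 120 reads in *arf7*-Mock and 51 in WT-Mock, and *ELIP2* had 69 and 23. Both were called higher in the NAA pair, whereas of the 11 lower genes only *LHB1B2* was called lower there and *LHCB1.3* and *LHCA2* were called higher. The list median in the NAA pair was 0.41, above 0.

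Markers of green shoot tissue are not independent of this group. Of 10 shoot markers, 9 had reads, 4 had at least 20 reads and all 4 of these had log2 ratios below 0, with *LHCB1.3* called. Their summed level was 28.9 RPKM in *arf7*-Mock and 74.1 RPKM in WT-Mock. The photosystem list holds 6 of these 9 markers, and *PSBO1*, with 125 reads in *arf7*-Mock and 247 in WT-Mock, is itself a photosystem II subunit gene. Markers outside the photosystems had few reads and intervals that included 0. The Rubisco subunit genes *RBCS1A*, *RBCS1B* and *RBCS3B* had 15, 2 and 1 reads in *arf7*-Mock and 23, 2 and 3 in WT-Mock, and *RCA* and *GUN4* had 4 each in *arf7*-Mock and 7 and 5 in WT-Mock. *LHCA1* was at 0 in both. The part of shoot tissue in the photosystem result was not tested. In whole roots, fewer cells of a type and less RNA per cell cannot be told apart.

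Genes of the circadian clock gave 2 calls, both lower. Of 19 clock genes with reads, *PRR7* and *GI* were called lower (10.5%, against 1.04% of all genes). *PRR7* (chromosome 5, 637897 to 641977), a repressor of morning genes, had 4.93 RPKM in *arf7*-Mock and 31.3 RPKM in WT-Mock (101 and 671 reads, log2 ratio -2.67, interval -2.98 to -2.36). *GI*, which stabilises a clock photoreceptor, had 428 reads in *arf7*-Mock and 1272 in WT-Mock (interval -1.67 to -1.35). Both were called lower in the NAA pair. *TOC1* and *PRR5* had log2 ratios of -0.51 and -0.66, while *ELF3* and *ELF4* were at 0.06 and 0.20. *RVE1* was at 0.98 and *RVE2* at 0.70 without being called. *RVE8*, also not called, had 15 reads in *arf7*-Mock and 2 in WT-Mock (log2 interval 0.87 to 6.15). Of the 13 listed genes with at least 20 reads, 5 had log2 ratios above 0 and 8 below. The morning genes *CCA1* and *PRR9* had at most 5 reads in a library.

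Light- and clock-controlled genes outside the list, picked after their values were seen, were also lower. *FKF1*, a blue light receptor that pairs with GI, had 104 reads in *arf7*-Mock and 337 in WT-Mock, *CDF3*, a cycling DOF factor, had 52 and 146, and *CCL* had 42 and 143. The evening element AAAATATCT, searched on both strands, was held by 10 of 127 windows of genes called lower (7.87%), *FKF1*, *CCL*, *MYBL2* and *GH3.2* among them. It was held by 2 of 102 windows of genes called higher (1.96%) and 2.36% of all windows. *PRR7* and *GI* had no match in these 250 bases. The time of harvest is not given in the labels, and whether the roots were collected at the same time was not tested.

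Of 16 indole glucosinolate and camalexin genes with reads, 2 modification genes were called lower (12.5%, against 1.04% of all genes) and none higher. These sulphur compounds of the cabbage family are made from tryptophan and then hydroxylated and methylated on the indole ring. *CYP81F2*, the hydroxylase of the ring, had 4.17 RPKM in *arf7*-Mock and 35.2 RPKM in WT-Mock (52 and 459 reads, log2 ratio -3.08, interval -3.52 to -2.66). The methyltransferase gene *IGMT2* had 133 reads in *arf7*-Mock and 639 in WT-Mock (log2 ratio -2.20), and its neighbour *IGMT4*, picked after its values were seen, had 2 and 34. Their close copy *IGMT1* was at 345 RPKM in *arf7*-Mock and 547 RPKM in WT-Mock (log2 ratio -0.66), and reads among these copies may have been assigned unevenly. Among 14 O-methyltransferase genes with reads, a list added after values were seen, *IGMT2* and *IGMT4* were the only calls. Other modification genes went the other way without being called, *CYP81F4* with 3781 reads in *arf7*-Mock and 2796 in WT-Mock (log2 ratio 0.50, interval 0.43 to 0.57) and *IGMT5* with 1400 and 1256 (log2 ratio 0.22). The synthesis genes *CYP79B2* and *CYP79B3* had log2 ratios of 0.17 and 0.01. Lower without being called were the synthesis gene *CYP83B1* (log2 ratio -0.40, interval -0.47 to -0.33) and *MYB51* (-0.57, interval -0.73 to -0.41). *MYB51* had a log2 ratio of -0.77 in the NAA pair. Of the 16 genes, 10 had log2 ratios above 0 and 6 below, and the list median was 0.06. In the NAA pair *CYP81F2* had 43 reads in *arf7*-NAA and 24 in WT-NAA and was not called, and *IGMT2* was called higher.

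A cluster of berberine bridge enzyme-like oxidase genes on chromosome 1 was lower too. The family was added as a list after values were seen, and 3 of its 22 members with reads were called lower. AT1G26380 had 5 reads in *arf7*-Mock and 44 in WT-Mock, AT1G26420 had 24 and 134, and AT1G26410 had 0 and 15. Against the floor of 3 reads set for a count of 0 in that library, AT1G26410 was 4.77-fold lower. That value takes the 15 reads in WT-Mock as exact. AT2G34810 of the same family was called higher with 202 reads in *arf7*-Mock and 95 in WT-Mock. The methionine-derived glucosinolate genes *BCAT4* and *CYP79F2*, from another list added after values were seen, were called higher with log2 ratios of 1.33 and 1.27, and 9 of the 10 members of that list with at least 20 reads had log2 ratios above 0. Their ratios were below 0 in the NAA pair.

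Listed genes of the epidermis and cuticle were mostly lower in both *arf7* libraries. The list was added after values were seen, so its counts describe these libraries only. Of 19 genes with reads 7 were called lower, the median log2 ratio was -1.04, and all 7 were called lower in the NAA pair, where the median was -1.10. *PDF2* (chromosome 4, 2476489 to 2482345), a homeodomain factor of epidermal identity, had 12 reads in *arf7*-Mock and 126 in WT-Mock (log2 ratio -3.33, interval -4.32 to -2.47), and *PDF1*, its known target, had 24.6 RPKM in *arf7*-Mock and 102 RPKM in WT-Mock (221 and 954 reads). The fatty acid elongase genes *KCS16* and *KCS12* had log2 ratios of -2.78 and -2.07 and were the only calls among 18 genes of their family, which was added after values were seen and had a median of 0.01. *ABCG11* and *LTPG1*, which act in the export of surface lipids, had log2 ratios of -1.76 and -1.04, and *MYB94*, an activator of wax genes, had -2.12. The root cell markers, the root hair gene *EXPA7* among them, were not lower as a group. Of the 12 root markers with at least 20 reads, 9 had log2 ratios above 0 and 3 below, with a median of 0.11. Other genes of the epidermis and cuticle list did not follow either. *LACS2* had 851 reads in *arf7*-Mock and 965 in WT-Mock, and *MYB30* had 404 and 415.

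Suberin and Casparian strip genes, which mark the endodermis, gave 1 call. Of 22 genes with reads only the fatty acid reductase gene *FAR1* was called, lower with 17 reads in *arf7*-Mock and 67 in WT-Mock. That share was 4.5%, against 1.04% of all genes. The scaffold gene *CASP1* was at 239 RPKM in *arf7*-Mock and 213 RPKM in WT-Mock, and the list median was 0.01.

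Wall and surface enzyme families changed in a few members. Among 59 class III peroxidase genes with reads, 3 were called lower and none higher, AT5G64120 with 118 RPKM in *arf7*-Mock and 250 RPKM in WT-Mock, AT2G38390 with 224 and 660 reads and AT4G08780 with 32 and 99 reads. These calls made 5.1% of the family, against 1.04% of all genes. All 3 were called lower in the NAA pair, and the family median was 0.05. Of 60 GDSL lipase genes with reads, 4 were called lower (6.67%, against 1.04% of all genes) and none higher. *CDEF1* and AT3G16370 were among them (AT3G16370 with 56 reads in *arf7*-Mock and 227 in WT-Mock). The glycine-rich protein gene *GRP5* had 48 reads in *arf7*-Mock and 267 in WT-Mock (log2 ratio -2.41), and the lipid-transfer protein genes AT5G01870 and *LTP2* had log2 ratios of -2.29 and -1.96. Of 140 pectin enzyme genes with reads, AT1G05310 and AT1G70500 were called higher and AT1G62770 and *PME44* lower. These made 2.86% of the family, against 1.04% of all genes. Expansin and XTH genes, which loosen the wall, had no called member, although 14 of 18 and 18 of 22 with at least 20 reads had log2 ratios above 0, with medians of 0.22 and 0.28.

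Nitrate and sugar genes gave further single calls. *NRT1.5*, which loads nitrate into the xylem, was the called lower gene of highest level, with 175 RPKM in *arf7*-Mock and 391 RPKM in WT-Mock (2779 and 6495 reads, log2 ratio -1.16, interval -1.22 to -1.09). It was called lower in the NAA pair as well. The nitrate reductase gene *NIA1* was called higher with 598 reads in *arf7*-Mock and 280 in WT-Mock, while *NIA2* (3556 and 3463 reads) and the nitrite reductase gene *NIR1* (1999 and 2104) were not called. All 10 genes of sugar starvation and the glyoxylate cycle with at least 20 reads had log2 ratios below 0, with a median of -0.40. *SEN1* and *DIN2*, both known to be induced by darkness, were the 2 called, with 17 and 45 reads in *arf7*-Mock and 63 and 107 in WT-Mock. Neither was called in the NAA pair, where the list median was 0.06.

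Stress-related families gave a few calls in both directions. Of 54 genes with reads matched by annotation text to glutathione transferases, 3 were called higher and 2 lower (9.26%, against 1.04% of all genes). The glutathione transferase gene *GSTF7* had 68.2 RPKM in *arf7*-Mock and 216 RPKM in WT-Mock (456 and 1513 reads), and its near-identical neighbour *GSTF6* had 11 and 51 reads. The osmotin gene *OSM34* had 73.2 RPKM in *arf7*-Mock and 190 RPKM in WT-Mock. *WRKY45* was the only one of 66 WRKY genes called, lower with 39 reads in *arf7*-Mock and 105 in WT-Mock. That share of 1.52% is near the share of all genes. Other glutathione transferase genes were called higher, *ERD9* with 216 reads in *arf7*-Mock and 79 in WT-Mock and *GSTU5* with 963 and 476. The remaining gene called higher, AT5G12110, had 306 reads in *arf7*-Mock and 140 in WT-Mock. Its annotation text matched both this list and that of ribosomal proteins. Among large families taken as a background, 1 of 348 ribosomal protein genes, none of 50 histone genes and none of 12 cell cycle genes was called. The ribosomal call was AT5G12110 again. The reference gene *ACT2* was at 43.0 RPKM in *arf7*-Mock and 50.4 RPKM in WT-Mock (log2 ratio -0.23).

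A few transcripts were nearly missing from the *arf7* libraries, and these were picked after their values were seen. AT4G29200, annotated as beta-galactosidase related (chromosome 4, 14398054 to 14400198, reverse strand), had 1 read in *arf7*-Mock and 685 in WT-Mock, with a log2 ratio of -9.35 (interval -14.66 to -6.87). With NAA it had 0 reads in *arf7*-NAA and 731 in WT-NAA. Reads covered 3.57% of the transcript in *arf7*-Mock and 93.7% in WT-Mock. *MRD1* on chromosome 1 had 1 read in *arf7*-Mock and 42 in WT-Mock, and 1 read in *arf7*-NAA and 40 in WT-NAA. The transposable element gene *SADHU3-2* on chromosome 3 had 4 reads in *arf7*-Mock and 49 in WT-Mock, and 1 in *arf7*-NAA and 49 in WT-NAA. The elements AT5G35935 and *SADHU5-1* were called higher, with 325 and 104 reads in *arf7*-Mock and 85 and 25 in WT-Mock. The 350 transposable element genes with reads gave no other call. Their called share of 0.857% is near the 1.04% of all genes.

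Called genes were spread over the 5 chromosomes, at between 0.839% of the genes with reads on chromosome 2 and 1.26% on chromosome 4. In 9 cases 2 called genes lay at most 2 places apart on the chromosome, and in 7 of these both moved the same way. They include *HSP17.6II* and *HSP17.6A*, *GSTF7* and *GSTF6*, *IGMT2* and *IGMT4*, and the purine permease genes *PUP7* and AT4G18205. Several of these neighbours are similar in sequence, so their reads may not be independent.

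The NAA libraries gave a second pair of the same genotypes with no library in common. NAA was present in both libraries of that pair, so a call there can also hold a difference in the response to NAA. Of the 105 genes called higher in *arf7*-Mock, 28 were called higher in *arf7*-NAA (0.588% of all genes with reads in that pair were) and 78 had a log2 ratio above 0 there, and of the 129 called lower, 50 were called lower (0.815% of all) and 90 had a ratio below 0. The genes called higher had a median log2 ratio of 0.50 in the NAA pair, and those called lower had -0.58. In 12 genes the calls were opposite. By group, 8 of 9 higher flavonoid genes, all 4 lateral root genes, all 7 epidermis genes and both clock genes were called in the same direction in both pairs, against 2 of 7 iron genes, 1 of 13 heat shock genes and 1 of 11 lower photosystem genes. The epidermis list was added after values were seen, and the other lists were chosen with earlier results of these data known. These shares therefore describe the lists and do not test them. The genes of the opposite calls include *RRTF1*, a redox-responsive ERF factor, with 175 reads in *arf7*-Mock and 61 in WT-Mock but 49 in *arf7*-NAA and 228 in WT-NAA.

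**Figure D4:**
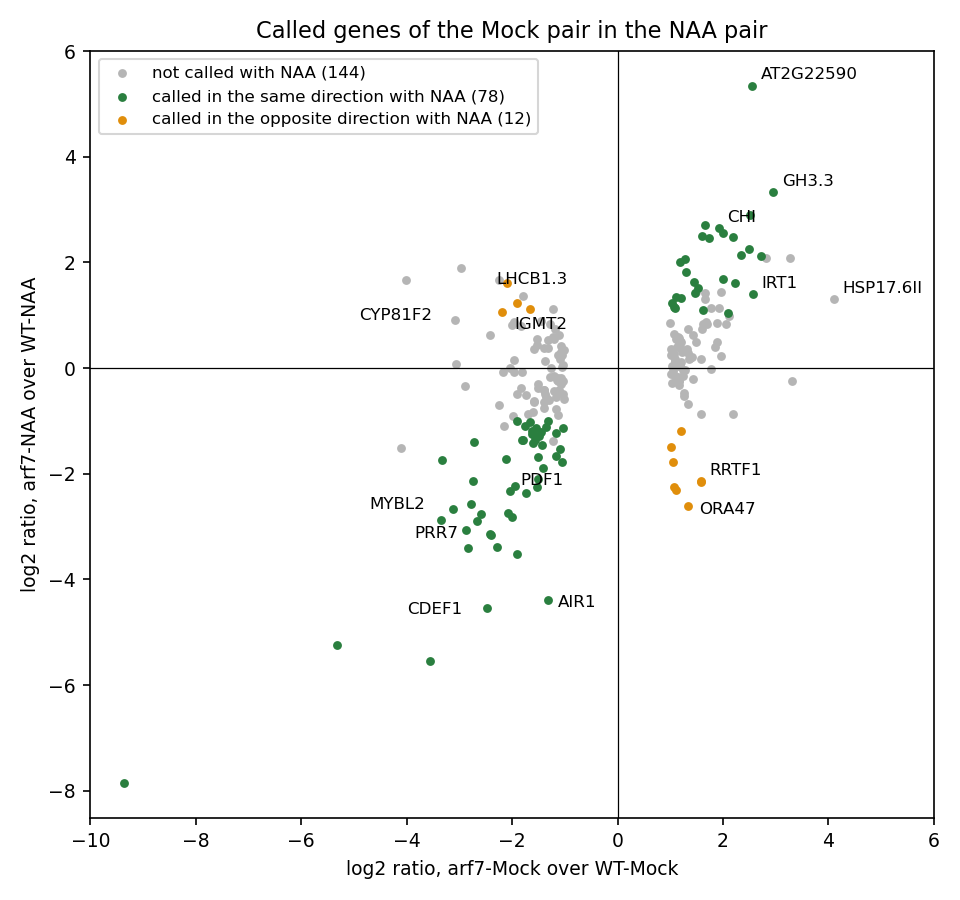
Log2 ratios of *arf7*-Mock over WT-Mock (x axis) and of *arf7*-NAA over WT-NAA (y axis) for the 234 genes called in the Mock pair, 1 point per gene. Of these, 78 are called in the same direction with NAA, 12 in the opposite direction and 144 are not called with NAA. *GH3.3* and *CHI* lie at the upper right, and *CDEF1* and *AIR1* at the lower left.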

How the data were processed

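Root RNA was reverse transcribed with random primers and sequenced on an Illumina HiSeq or other sequencer, 1 library for each of 4 conditions. For each library the authors deposited the count of reads assigned uniquely to each transcript model, its RPKM, and the percent of the transcript covered by reads. The deposited RPKM were recomputed exactly from counts, transcript lengths and library totals. The aligner and genome build are not given in the sources used here. The authors' 4 comparison tables hold fold changes, p-values and 16 per-sample columns and were not used. Symbols come from the authors' annotation.

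The thresholds (P below 0.0001, absolute log2 ratio of at least 1) follow the study. The test was chosen here and is an exact binomial test, two-sided, that takes the library totals as given. A count of 0 was set to 3 in ratios. Genes and 48 lists were chosen with earlier results of these data known, and 7 lists were added after values were seen (methionine-derived glucosinolates, cuticle and epidermis, berberine bridge enzyme-like, O-methyltransferases, 3-ketoacyl-CoA synthases, transposable elements, annotated GH3 genes). Named were the 15 largest rises and falls among called genes that had 10 or more reads in each library, the 5 called genes of highest RPKM each way, genes the study names, called list members and the highest member of each list, and any other gene is said to be picked after its values were seen or is named to describe its list. List medians use members with at least 20 reads over both libraries.

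Promoter windows were read from TAIR10.1, with which the authors' coordinates overlapped for 22335 of 22342 genes. Each window ends at the RefSeq gene start, which can lie away from the start of the transcript model in the authors' files. The *CHS* window ends at 4488475 and its model starts at 4488688. For AT1G53540 these positions are 19980298 and 19980462. Python 3.11.15, NumPy 2.4.6, pandas 2.3.3, SciPy 1.17.1, R 4.3.3, edgeR 4.0.16 and DESeq2 1.42.0 were used, and the calls were tested on simulated data. Alternatives were edgeR TMM scaling, DESeq2 size factors, 1 RPKM added to each value, genes reaching 1 RPKM only, edgeR's exact test with an assumed coefficient of variation of 0.2 or 0.4, list members with at least 100 reads, and summing the models of each gene. Intervals and floors cover counting error only.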

Additional observations from a re-analysis of the deposited data

Results flagged for a closer look

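In 12 genes the difference between the genotypes was called in opposite directions in the Mock pair and in the NAA pair. Log2 ratios below are given for *arf7*-Mock VS WT-Mock and then for *arf7*-NAA VS WT-NAA, and the difference between the pairs was not tested. Both pairs are single libraries, so a difference between libraries of any origin would also appear here.

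Of these, 8 were higher in *arf7* without NAA and lower in *arf7* with NAA. *SR45a*, an RNA-binding splicing factor, had log2 ratios of 1.21 and -1.19. AT1G50750, a plant mobile domain gene, had log2 ratios of 1.1 and -2.31. *NUDT21*, a nudix hydrolase, had log2 ratios of 1.04 and -1.77. *ORA47*, an AP2/ERF factor of the jasmonate response, had log2 ratios of 1.34 and -2.61. AT2G30020, a protein phosphatase 2C gene, had log2 ratios of 1.01 and -1.50. AT3G02840, an ARM repeat gene, had log2 ratios of 1.58 and -2.16. *RTFL12*, a ROTUNDIFOLIA-like peptide gene, had log2 ratios of 1.08 and -2.24. *RRTF1*, a redox-responsive ERF factor, had log2 ratios of 1.59 and -2.14. The reads of *ORA47* were 63 in *arf7*-Mock and 26 in WT-Mock, and 18 in *arf7*-NAA and 116 in WT-NAA.

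The other 4 were lower in *arf7*-Mock and higher in *arf7*-NAA. *IGMT2*, an indole glucosinolate methyltransferase gene, had log2 ratios of -2.20 and 1.06. *LHCB1.3*, an antenna gene of photosystem II, had log2 ratios of -1.90 and 1.23. *PLA2A*, a phospholipase gene, had log2 ratios of -2.09 and 1.60. *LHCA2*, an antenna gene of photosystem I, had log2 ratios of -1.66 and 1.12. The reads of *LHCB1.3* were 81 in *arf7*-Mock and 317 in WT-Mock, and 530 in *arf7*-NAA and 238 in WT-NAA.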

How the results depend on the processing

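With 1 library per condition the counts of calls rest on how much roots of the same kind are taken to vary. The binomial test assumes counting error only and called 235 transcript models (234 genes). Under edgeR's exact test, given an assumed coefficient of variation of 0.2 between replicates, 45 transcript models were called, 19 higher and 26 lower in *arf7*-Mock. With 0.4, 1 was called, 0 higher and 1 lower. The fall is built into these assumptions, and the true variation cannot be had from these libraries. Under edgeR TMM scaling, DESeq2 size factors, 1 RPKM added to each value, genes reaching 1 RPKM only and summed transcript models the count lay between 204 and 245, within 1.5 times the count above.

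Of 620 alternative values for 155 named genes, 609 lay within the counting interval of the gene and 11 outside it, and none of the called genes changed sign. Of 223 alternative list medians 220 moved by less than the median half-width of their members' intervals. With members of at least 100 reads only, the median of the GH3 enzymes was -0.83, that of the clock genes -0.16 and that of the annotated GH3 genes -0.37. No paired analysis was possible because each condition has 1 library.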
